A study of Mus musculus with 6 samples.

Results

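OT-I cells that had been stimulated with peptide in the presence of TAMos were compared with OT-I cells stimulated in the presence of vehicle, across all expressed genes. The OT-I mouse supplies CD8+ T cells whose transgenic receptor sees a peptide of ovalbumin. In every group they were wild type per the labels and were given that peptide, OVA257-264, for 48 hours. The TAMo group shared its culture with CD11b+ cells that lacked Ly6G and had high Ly6C, taken from spleens of mice carrying LLC tumours (Lewis lung carcinoma, a transplanted mouse tumour), and the vehicle group received vehicle. A further group, the TAN group, received CD11b+ splenic cells with Ly6G and low Ly6C from such mice, and is used here as a further reference. T cells were purified after the culture and before RNA isolation. Each group has 2 libraries, so the comparison uses 4 of the 6 libraries. The labels do not say what TAMo and TAN stand for, how many mice the sorted cells came from, the ratio of the cells, or the age of the mice. Separate cultures or animals are not stated for the replicates either, so p-values here measure only how these samples spread, and that spread may be technical.

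Members are the genes with at least 1 FPKM (a read count scaled to gene length and to all counted reads of the library) in at least 2 of the 4 vehicle and TAMo libraries. They number 10612 of the 25638 genes in the table. Changes are given as log2 changes of FPKM + 1, TAMo minus vehicle, from a limma fit over all 6 libraries, with a standard error (SE) after the ± sign. Genes with an adjusted p under 0.05 are called higher or lower, and the words rose and fell are used of such genes only. A fold is the ratio of the group means of FPKM. In pairs of values, replicate 1 comes first.

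A T cell that meets its peptide leaves rest, grows, builds ribosomes, enzymes and lipids, and divides repeatedly, while it shuts down genes that keep it in lymphoid organs and makes cytokines and granule proteins. The transcription factor p53 opposes division after damage or stress. Among its targets are inhibitors of the cyclin-dependent kinases, which keep the pocket proteins of the retinoblastoma family active, and these hold down promoters of replication and mitosis genes. Mitotic promoters often carry a short element known as the cell cycle homology region, TTTGAA, close to the start site, replication promoters carry sites for E2F factors, and promoters that answer to amino acid shortage through ATF4 carry an amino acid response element.

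Promoter sequences are shown for 4 genes from lists in which most members fell, because their upstream letters differ by group. The windows are the 250 bases before the RefSeq start site on GRCm38.p6, on the strand of the gene, and capitals mark the motif letters. Cdk1 (chr10:69352913-69353162, minus strand) and Cdc20 (chr4:118437344-118437593, minus strand) are mitosis genes with TTTGAA in capitals. Mcm5 (chr8:75109259-75109508, plus strand) is a replication gene with the reverse complement of the E2F letters TTTGGCGC in capitals. Asns (chr6:7693210-7693459, minus strand), the asparagine synthetase gene, has a match to TGATGNAA in capitals.
Cdk1: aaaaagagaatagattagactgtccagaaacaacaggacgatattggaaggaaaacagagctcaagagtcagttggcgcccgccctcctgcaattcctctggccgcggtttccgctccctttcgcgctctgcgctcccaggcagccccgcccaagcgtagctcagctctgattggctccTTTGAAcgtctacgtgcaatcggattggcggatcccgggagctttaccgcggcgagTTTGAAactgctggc
Cdc20: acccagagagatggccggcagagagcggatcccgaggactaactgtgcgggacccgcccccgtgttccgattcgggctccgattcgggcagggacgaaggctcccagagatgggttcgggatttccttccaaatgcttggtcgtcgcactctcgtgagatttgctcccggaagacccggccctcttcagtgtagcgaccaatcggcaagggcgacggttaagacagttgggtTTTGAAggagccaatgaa
Mcm5: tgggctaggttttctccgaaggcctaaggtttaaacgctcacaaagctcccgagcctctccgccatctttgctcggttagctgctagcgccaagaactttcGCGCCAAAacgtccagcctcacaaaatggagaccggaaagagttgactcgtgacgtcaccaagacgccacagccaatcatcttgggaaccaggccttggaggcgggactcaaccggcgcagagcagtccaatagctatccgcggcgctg
Asns: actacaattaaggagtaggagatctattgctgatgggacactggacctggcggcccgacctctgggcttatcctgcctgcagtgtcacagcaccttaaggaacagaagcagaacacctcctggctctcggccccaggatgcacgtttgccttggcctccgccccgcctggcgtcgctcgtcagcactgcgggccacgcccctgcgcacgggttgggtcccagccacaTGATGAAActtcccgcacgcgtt
The capitals begin 71 and 15 bases before the start in Cdk1, 18 bases before it in Cdc20, 149 in Mcm5 and 23 in Asns.

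Such letters were counted on both strands in 300-base RefSeq windows, from 250 bases before to 50 after the start site, which 8288 of the tested genes had. TTTGAA was in a window of 24 of 35 mitosis genes (68.6%) and of 14.1% of tested genes. It was in 38.1% of 155 genes that were lower by at least 3 on the log2 scale. Mitosis genes are among those 155, so these shares are not separate. Of 73 genes that were higher by at least 3, 6.85% had it. In the replication list, where all tested members fell, 6 of 37 genes had it (16.2%), near the share of tested genes. The E2F letters, TTTCCCGC or TTTGGCGC, were in windows of 13 of 37 replication genes (35.1%), of none of the 35 mitosis genes and of 3.78% of tested genes. TGATGNAA was found in 7 of 19 genes of the ATF4 and CHOP list (36.8%) and in 5 of 12 aminoacyl-tRNA synthetase genes (41.7%), against 2.62% of tested genes. CCAAT, a common promoter box, was in 16 of 17 cholesterol synthesis genes (94.1%) and 26 of 35 mitosis genes (74.3%), against 43.7% of tested genes, but also in 20 of 30 p53 targets (66.7%), most of which rose, and in 23 of 37 replication genes (62.2%). The letters of these motifs do not contain one another, and a match is a description of the letters, with no measure of binding.

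The 2 groups differed in most of the transcriptome. With TAMo 4901 genes were called higher (46.2% of those tested) and 4308 lower (40.6%), and 1403 were not called. Counts of list members below are to be read beside these shares, since a list divided about evenly between rises and falls resembles all tested genes. Because so many genes passed, a change of at least 1 on the log2 scale was read beside the call: 1600 genes were higher by that much (15.1%) and 1540 lower (14.5%). More genes fell than rose by large amounts, with 71 genes lower and 27 higher by at least 4. The median change over all tested genes was 0.065, and 80% of genes lay between -1.28 and 1.26. Replicate libraries differed by a median of 0.054 (vehicle) and 0.061 (TAMo) per gene, against a median size of the change of 0.64. The libraries of the groups did not overlap in 9852 of the 10612 tested genes. Separation of the groups in single genes below is therefore common to most tested genes. The largest changes named below were also chosen among such genes, so their separation is a description and no added support. Of the tested genes, 446 reached 1 FPKM in both TAMo libraries and in neither vehicle library, and 410 the reverse.

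The sum of all FPKM was 630749 and 629901 with vehicle and 546324 and 548039 with TAMo, so the scale of the comparison depends on the normalisation. When all libraries were rescaled to one sum, the median change moved by 0.19 and the genes changed by at least 1 became 2163 higher and 1219 lower, in place of 1600 and 1540. With a median of ratios they were 1446 and 1689. Single genes and lists near 0 are therefore read against this shift, while the large changes below are many times its size. The change also followed gene properties: its median rose from -0.31 in the shortest to 0.44 in the longest of 5 equal bins of transcript length, and went from 0.24 in the lowest to -0.21 in the highest of 5 bins of GC content. The part of length and GC content in the results below was not tested beyond a fit with both trends removed, in which 1491 genes were higher and 1424 lower by at least 1. Steps between low values corresponded to counted reads of 44.8 and 45.3 M with vehicle and of 43.7 and 41.6 M with TAMo. Even numbers made up 98.8% of the low read numbers of TAMo replicate 1 and 60.2% to 63.6% of those of the other libraries. The steps of TAMo replicate 1 therefore also match a depth well below 43.7 M. Such depths were not searched, so its depth is uncertain and may be well below that value. Without this library the median change over all tested genes was 0.075.

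**Figure D1:**
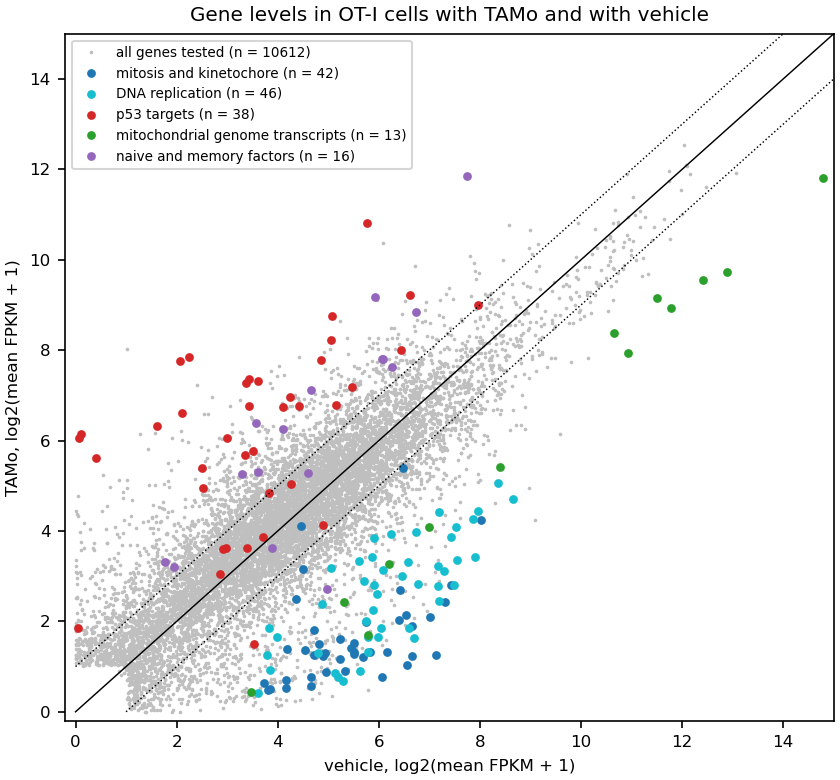
Mean level of each of the 10612 tested genes with vehicle (horizontal) and with TAMo (vertical), as log2 of FPKM + 1, with 5 gene lists in colour. Dotted lines mark a change of 1 in either direction from the solid line of equality. Replication, mitosis and mitochondrial genome transcripts lie below the lower dotted line almost throughout, and most p53 targets and naive and memory factors above the upper one.

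**Figure D2:**
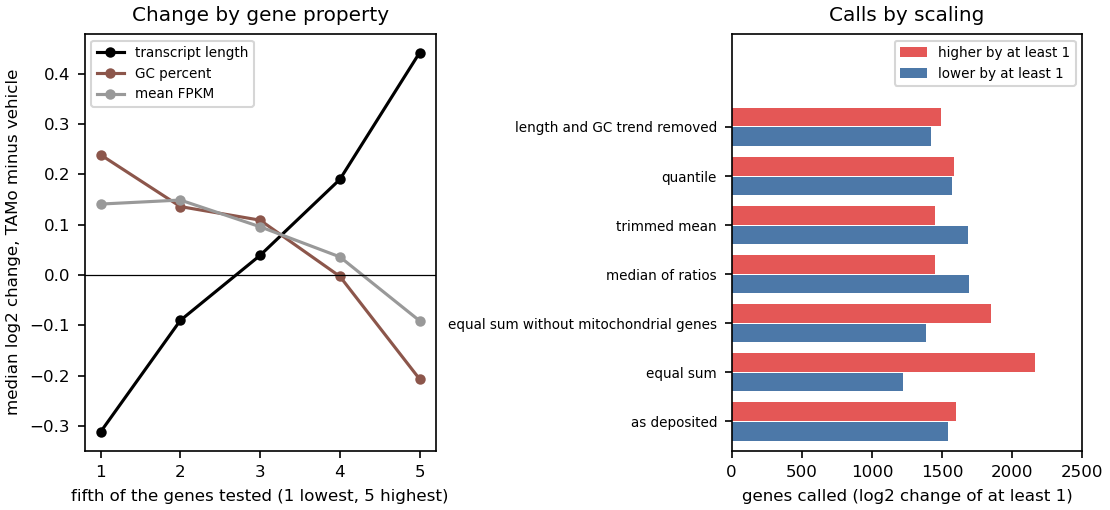
Left, the median log2 change in 5 equal bins of the tested genes ranked by transcript length, GC content and mean FPKM. Right, the number of genes called higher and lower by at least 1 with the values as deposited, under 5 rescalings and with the length and GC trends removed. The line for transcript length climbs from -0.31 to 0.44, and rescaling to an equal sum gives 2163 higher and 1219 lower genes.

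Genes of cell division made up most of the largest falls. All 42 tested genes of mitosis and the kinetochore were lower, 41 of them by at least 1, with a median of -3.94, and all 46 tested replication genes were lower by at least 1, with a median of -3.54. Of the 25 largest falls among all genes, 16 belonged to these lists. Cdk1, the kinase that drives entry into mitosis (GRCm38 chromosome 10, 69335146 to 69352938), went from 67.6 and 64.7 FPKM to 0.606 and 0.785 FPKM, a change of -5.31 ± 0.061 (adjusted p = 6.75e-10). Cdc20, an activator of the anaphase-promoting complex, went from 175 and 168 FPKM to 6.02 and 5.896 FPKM (-4.63). Mcm5, a subunit of the replicative helicase (GRCm38 chromosome 8, 75109569 to 75128439), fell from 178 and 181 FPKM to 5.45 and 6.53 FPKM (-4.69). Both TAMo libraries lay far below both vehicle libraries in each of these. Spc24 of the kinetochore fell from 72.8 and 68.8 FPKM to 1.53 and 1.495 FPKM, and Mcm10, a replication initiation factor, from 38.4 and 37.7 FPKM to 0.808 and 0.385 FPKM. Among the largest falls in no list were the kinase genes Pbk (-4.73) and Pkmyt1 (-4.595), the chromokinesin gene Kif22 (-4.73) and Pclaf, which encodes a partner of the replication clamp (-4.604).

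Genes of regulators of the cell cycle moved in both directions. Among 19 genes of E2F factors, pocket proteins and mitotic activators, 13 fell and 4 rose. Activators among those that fell were Foxm1 from 47.5 and 44.5 FPKM to 1.15 and 2.25 FPKM, Mybl2 from 69.1 and 65.3 FPKM to 3.06 and 2.97 FPKM, E2f2 from 28.3 and 27.4 FPKM to 0.828 and 0.906 FPKM and E2f1 from 22.3 and 22.3 FPKM to 1.43 and 1.49 FPKM. The pocket protein genes Rbl2, which encodes p130, and Rb1 rose. Rbl2 went from 6.41 and 6.38 FPKM to 47.8 and 46.8 FPKM (2.71 ± 0.046) and Rb1 from 12.3 and 12.8 FPKM to 65.04 and 66.3 FPKM (2.29 ± 0.047), with no overlap between the groups. Of 13 CDK inhibitors and G1 cyclins, 6 rose and 6 fell, near the 46.2% higher and 40.6% lower of all tested genes. The inhibitor gene Cdkn1a, which encodes p21, reached 34.1-fold its vehicle level, and the cyclin D2 gene Ccnd2 rose from 218 and 225 FPKM to 1081 and 1094 FPKM, while the cyclin E genes Ccne1 and Ccne2 fell (log2 changes of -4.03 and -3.002). In the Myc network, several antagonists of Myc rose, among them Mxd4 from 1.85 and 2.09 FPKM to 32.1 and 31.01 FPKM, Mxd1 from 6.68 and 6.43 FPKM to 52.2 and 50.5 FPKM and Mxi1 from 13.03 and 13.8 FPKM to 39.3 and 39.7 FPKM. Myc itself fell by 0.53 and Mxd3, of the antagonists' family, by 1.65.

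Genes of DNA repair by homologous recombination, which is tied to replication, fell with them. Of 27 genes of that list 24 were lower and 2 higher, with a median of -2.66. The exonuclease gene Exo1 fell from 39.2 and 39.8 FPKM to 0.758 and 0.905 FPKM, Rad51ap1 from 40.98 and 40.8 FPKM to 1.19 and 0.644 FPKM and the Fanconi gene Fanca from 26.96 and 24.7 FPKM to 0.526 and 0.713 FPKM. The 2 that rose, the checkpoint kinase gene Chek2 and Mus81, changed by 0.305 and 0.15, and the call of Mus81 was lost without any 1 vehicle or TAMo library (adjusted p from 0.0505 to 0.123). Of 23 clustered histone genes 19 fell and 4 rose. The FPKM sum over the 25 listed histone genes went the other way, from 190 and 168 with vehicle to 233 and 247 with TAMo. Hist1h3c, a replication-dependent histone H3 gene, fell from 27.6 and 26.9 FPKM to 0.0724 and 0.609 FPKM, and the linker histone gene Hist1h1c rose from 15.7 and 13.8 FPKM to 176 and 169 FPKM (3.46 ± 0.091). Hist1h2bc rose from 4.98 and 4.74 FPKM to 36.8 and 54.7 FPKM. Histone genes are near-identical and can share reads, so single members are uncertain. Of 19 chromatin methylation and Polycomb genes 11 rose and 8 fell, beside 46.2% higher and 40.6% lower of all tested genes. Their median was 0.29 (-0.21 with length and GC trends removed). The maintenance methylase gene Dnmt1 (-2.77), Suv39h1 (-2.67) and Ezh2 (-1.796) fell, and Ezh1, the relative of Ezh2 typical of resting cells, rose from 5.59 and 5.48 FPKM to 20.5 and 20.7 FPKM (1.72).

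Targets of p53 rose. Of 38 tested p53 targets 35 rose, 30 of them by at least 1, and 2 fell, with a median of 2.62. Ak1, an adenylate kinase gene and the p53 target with the largest change, went from 0.0962 and 0.0635 FPKM to 71.3 and 69.1 FPKM (6.04 ± 0.069, adjusted p = 6.75e-10), and Phlda3, an inhibitor of AKT signalling, from 4.42 and 3.11 FPKM to 233 and 222 FPKM (5.599 ± 0.12). Sulf2, a heparan sulfatase gene, stood at 0.0329 and 0.0652 FPKM with vehicle and reached 65.7 and 65.05 FPKM with TAMo. In all 3 every TAMo value was far above every vehicle value, and genes with overlapping groups had been left out of this choice. The 2 targets that fell were the damage recognition gene Ddb2, from 10.4 and 10.6 FPKM to 1.93 and 1.698 FPKM (-2.04), and Plk3 (-0.76). Among genes of cell death, several BH3-only genes that trigger apoptosis rose: Bbc3 (PUMA) from 19.3 and 16.7 FPKM to 124 and 123 FPKM, Pmaip1 (NOXA) from 4.79 and 4.66 FPKM to 29.6 and 30.2 FPKM and Bcl2l11 (BIM) from 9.55 and 8.92 FPKM to 46.1 and 44.7 FPKM. Of 12 BCL2 family genes 10 rose, and the survival gene Bcl2a1d, which has near-identical copies, and Bid fell (-2.05 and -0.701). The death receptor gene Fas rose from 10.4 and 8.401 FPKM to 154 and 155 FPKM (3.91 ± 0.082) and Tnfrsf10b, a TRAIL receptor gene, from 4.43 and 4.903 FPKM to 41.1 and 41.6 FPKM. Cflar, which encodes an inhibitor of caspase 8, rose with them (2.24), and the necroptosis kinase gene Ripk3 fell (-1.15).

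Among the 25 largest rises, 14 genes were in no list, and 1 of these was a predicted gene. Serpine2, a secreted protease inhibitor gene, rose 19.9-fold, from 67.7 and 65.8 FPKM to 1334 and 1318 FPKM (4.29 ± 0.028). Glipr1 rose from 4.18 and 4.33 FPKM to 149 and 151 FPKM, and Slc15a3, a lysosomal transporter gene, from 5.47 and 5.48 FPKM to 123 and 124 FPKM. Several genes best known from other tissues went from near 0 to well above 10 FPKM. The epidermal transcription factor gene Zfp750 was at 0.0276 and 0.0274 FPKM with vehicle and 26.1 and 27.1 FPKM with TAMo, Gria3 of the glutamate receptor channels at 0 and 0.0269 and 19.2 and 20.4 FPKM, Ckmt1, a mitochondrial creatine kinase gene, at 0.0235 and 0 and 22.05 and 19.2 FPKM, and Cpt1c, a carnitine palmitoyltransferase gene of the brain, at 0.57003 and 0.328 and 38.2 and 35.3 FPKM. Each was present at this level in both TAMo libraries.

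**Figure D3:**
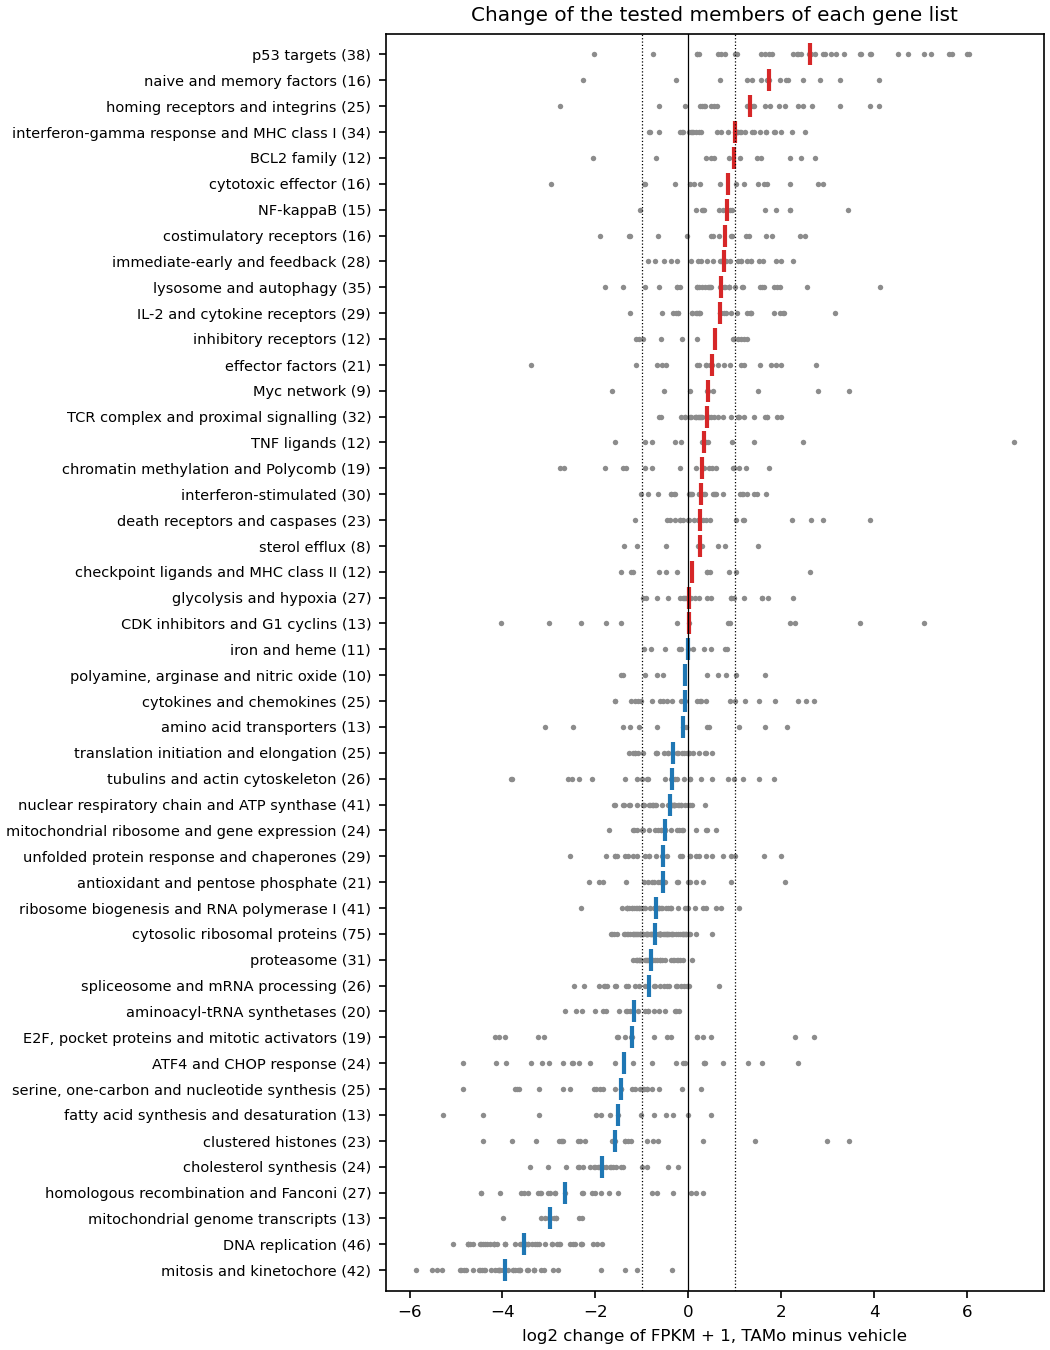
Log2 change of FPKM + 1 of every tested member (grey points) of each gene list, ordered by the list median (coloured bar, red above 0 and blue below), with the number of tested members in parentheses. The lists of mitosis, replication and mitochondrial genome transcripts have medians of -3.94, -3.54 and -2.99, and those of p53 targets, naive and memory factors and homing receptors 2.62, 1.73 and 1.33.

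Factors of naive and memory T cells rose. Of 16 tested genes of that list 14 rose, 13 of them by at least 1, and 2 fell, with a median of 1.73. Ccr7, the chemokine receptor gene that guides T cells into lymph nodes (GRCm38 chromosome 11, 99144196 to 99155077), was at 217 and 211 FPKM with vehicle and 3742 and 3679 FPKM with TAMo, a 17.3-fold difference (4.11 ± 0.028, adjusted p = 1.9e-10). The transcription factor genes Bach2, which restrains effector genes, and Lef1 and Tcf7, which keep T cells able to renew, rose from 10.8 and 10.8 FPKM to 84.3 and 82.4 FPKM, from 16.4 and 16.2 FPKM to 76.1 and 74.3 FPKM and from 66.5 and 65.1 FPKM to 225 and 220.1 FPKM. Both TAMo libraries stood above both vehicle libraries in these 4 genes. Foxo3 (2.46), Satb1 (2.11), Klf3 (1.97), Foxp1 (1.72), Foxo1 (1.697), Klf2 (1.55), Ets1 (1.36), S1pr1 (1.25) and the IL-7 receptor gene Il7r (0.68) rose too. Id3, an inhibitor of E proteins linked to memory cells, fell from 30.95 and 29.6 FPKM to 6.03 and 5.07 FPKM (-2.26 ± 0.076), and Eomes by 0.27, a call lost on rescaling to one sum (-0.077, adjusted p = 0.142).

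Homing receptors and integrins followed the same direction, with 21 of 25 higher, 15 by at least 1, and 2 lower. Cxcr6, a chemokine receptor gene of tissue-resident cells, rose from 1.14 and 0.721 FPKM to 28.05 and 27.7 FPKM (3.91 ± 0.11). Ccr6 fell from 13.2 and 15.6 FPKM to 1.24 and 1.27 FPKM (-2.77 ± 0.088) and Ccr4 by 0.64. Of 29 genes of IL-2 and other cytokine receptors and their feedback inhibitors, 21 rose and 6 fell. Il21r, the IL-21 receptor gene, was the furthest raised, from 59.9 and 63.2 FPKM to 553 and 551 FPKM (3.15 ± 0.036), followed by Tgfbr2, a TGF-beta receptor gene (2.05), the common gamma chain gene Il2rg (2.03) and Il4ra (1.96). The feedback inhibitor gene Socs2 fell by 1.27.

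Effector factors were not lowered as a group: 16 of 21 rose, 7 by at least 1, and 5 fell, with a median of 0.52. Id2, which favours effector cells, rose from 15.3 and 16.7 FPKM to 114 and 111 FPKM (2.74 ± 0.055) and Irf4, induced by receptor signals, from 165 and 168 FPKM to 667 and 668 FPKM (1.998 ± 0.024). Rora (1.88), Nfat5 (1.77), Bhlhe40 (1.54), Hif1a (1.199) and Nfatc1 (1.13) also rose by at least 1, and Runx3 and the T-bet gene Tbx21 by 0.89 and 0.77. Batf3 fell from 126 and 132 FPKM to 12.4 and 10.6 FPKM (-3.38 ± 0.069), Nfil3 by 1.12, Batf by 0.67 and Irf8 by 0.49. The TAMo values of Batf3 lay well below both vehicle values.

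Granule genes split. Granzyme B was among the most abundant transcripts in either group, with Gzmb at 4312 and 4269 FPKM with vehicle and 4437 and 4348 FPKM with TAMo, a change of 0.034 ± 0.03 that did not pass (adjusted p = 0.324). Its call depended on the scaling: rescaled to one sum the change was 0.24 (adjusted p = 0.000179), and after quantile normalisation 0.78 (adjusted p = 2.81e-07). Prf1, which encodes the pore-forming protein perforin, fell from 195 and 191 FPKM to 24.2 and 23.6 FPKM (-2.96 ± 0.028, adjusted p = 3.75e-10). Srgn, the gene of the granule proteoglycan serglycin, rose from 388 and 377 FPKM to 1758 and 1726 FPKM (2.19 ± 0.027). In the whole list 11 of 16 rose, 8 by at least 1, and 4 fell. Further risers were Gzmc (from 1.698 and 1.71 FPKM to 18.7 and 16.5 FPKM), Gzmf (2.8997), Gzma (1.49), Gzme (listed at 0 in both vehicle libraries and at 1.44 and 1.15 FPKM with TAMo), Cst7 (1.69), Lamp1 (1.62) and Nkg7 (1.02). The C to G granzyme genes are close copies of one another, so their single values are uncertain. Ctsw (-0.95) and the NKG2D gene Klrk1 (-0.94) fell.

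Of 25 cytokine genes 11 rose and 12 fell, 6 in each direction by at least 1, shares near the 46.2% higher and 40.6% lower of all tested genes. Ifng, the interferon-gamma gene (GRCm38 chromosome 10, 118441046 to 118445892), fell from 677 and 683 FPKM to 225 and 227 FPKM (-1.59 ± 0.025, adjusted p = 2.1e-09). Lta, which encodes lymphotoxin alpha, fell from 137 and 132 FPKM to 42.8 and 45.9 FPKM (-1.58 ± 0.04), Il3 from 43.3 and 46.9 FPKM to 19.1 and 18.01 FPKM and Tnf from 34.9 and 32.9 FPKM to 19.8 and 18.8 FPKM. Xcl1 (-1.08), Il17a (-1.03) and Ebi3 (-1.16) were lower as well. In the other direction, Il2, the T cell growth factor gene, rose from 2.11 and 2.38 FPKM to 17.7 and 17.5 FPKM (2.52 ± 0.1), Il21 from 0.9296 and 0.737 FPKM to 8.29 and 8.59 FPKM (2.37 ± 0.12) and the chemokine gene Ccl5 from 7.64 and 5.73 FPKM to 48.6 and 48.4 FPKM (2.699 ± 0.11). These 3 transcripts were low with vehicle, and both TAMo libraries exceeded both vehicle libraries. Lif (1.22), Csf1 (1.51), Ccl9 (1.85) and Ccl4 (0.99) rose.

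**Figure D4:**
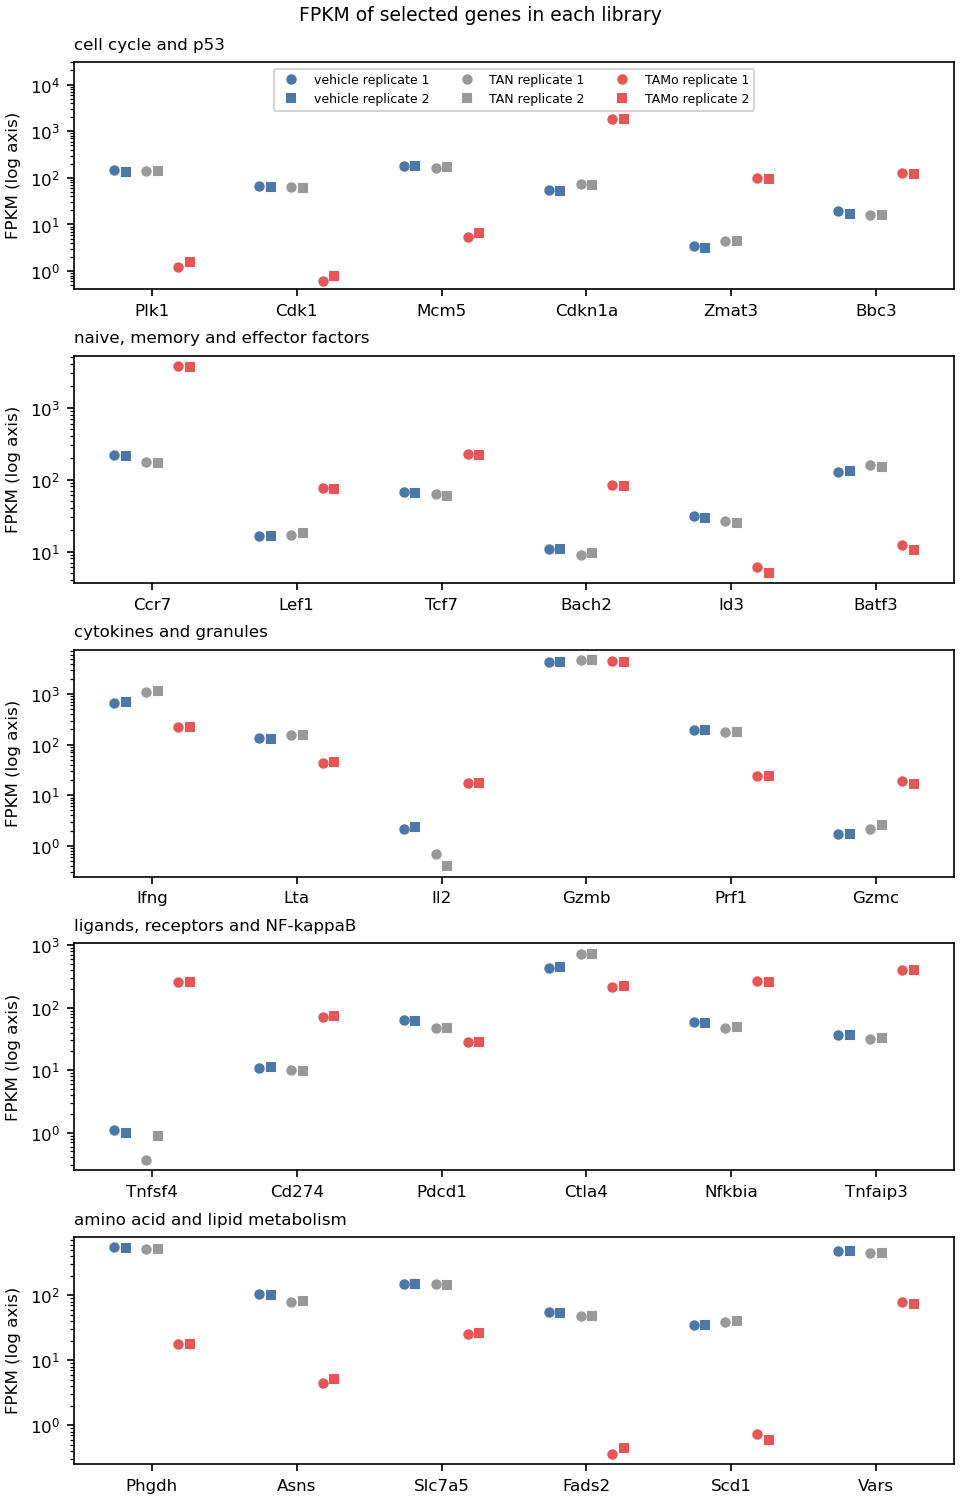
FPKM on a log axis in each of the 6 libraries (circles replicate 1, squares replicate 2) of 30 genes in 5 groups, with vehicle in blue, TAN in grey and TAMo in red. The TAMo libraries stand apart from both other groups in most panels, for example at 3742 and 3679 FPKM of Ccr7, and lie among them for Gzmb.

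Ligands and receptors of costimulation changed in both directions. Of 12 TNF family ligand genes 7 rose and 5 fell, beside 46.2% higher and 40.6% lower of all tested genes. Tnfsf4, the OX40 ligand gene, went from 1.09 and 0.972 FPKM to 262 and 255 FPKM, the largest rise of the named genes on the log2(FPKM + 1) scale (6.999 ± 0.14), though not as a fold, in which genes nearer 0 with vehicle exceeded it. Tnfsf8 (CD30 ligand) rose from 9.99 and 9.54 FPKM to 58.6 and 58.8 FPKM and Tnfsf11 (RANKL) from 17.1 and 16.3 FPKM to 47.6 and 44.3 FPKM. The receptor of OX40 ligand moved the other way, with Tnfrsf4 falling from 422 and 409 FPKM to 172 and 171 FPKM (-1.27 ± 0.026), as did the CD30 gene Tnfrsf8 (-1.27). The TRAIL gene Tnfsf10 fell by 0.94. Of 16 costimulatory receptor genes 11 rose, with Slamf7 from 40.5 and 41.5 FPKM to 238 and 241 FPKM, Tnfrsf14 (HVEM) from 6.48 and 6.76 FPKM to 41.8 and 37.1 FPKM and Cd28 from 30.4 and 30.9 FPKM to 109 and 110.0 FPKM, and Cd2, an adhesion receptor gene, fell from 189 and 203 FPKM to 48.2 and 55.3 FPKM (-1.903 ± 0.064).

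Inhibitory receptor genes did not move as one. Pdcd1, the PD-1 gene, fell from 63.7 and 60.4 FPKM to 27.97 and 27.9 FPKM (-1.12 ± 0.038), Ctla4 from 436 and 447 FPKM to 219 and 226 FPKM (-0.99 ± 0.028) and Lag3 from 302 and 291 FPKM to 196 and 195 FPKM (-0.599 ± 0.028). Vsir (VISTA) rose from 22.1 and 21.4 FPKM to 53.5 and 52.8 FPKM (1.25 ± 0.038), Tigit from 86.7 and 86.1 FPKM to 169 and 167 FPKM (0.95 ± 0.028) and Cd96 from 13.1 and 14.1 FPKM to 32.9 and 32.1 FPKM (1.202 ± 0.053). Over the 12 tested genes 7 rose and 4 fell, beside 46.2% higher and 40.6% lower of all tested genes. Tox, a factor of exhausted cells, did not pass (-0.15, adjusted p = 0.0762) but was called lower after a median of ratios (-0.20, adjusted p = 0.025). Cd274, the gene of the PD-1 ligand PD-L1, rose from 11.03 and 11.3 FPKM to 72.4 and 73.6 FPKM (2.61 ± 0.043) in the T cells, and the gene of the other PD-1 ligand, Pdcd1lg2, fell from 10.2 and 10.04 FPKM to 3.58 and 4.13 FPKM.

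Genes of signalling below the T cell receptor were raised more often than lowered. Of 32 genes of the receptor complex and its proximal signalling 25 rose and 4 fell, with a median of 0.41, and the furthest raised were restraints and tuners of the signal, Cd6 (1.98), the ubiquitin ligase gene Cblb (1.902), Cd5 (1.69) and Themis (1.69). The coreceptor gene Cd8a fell from 145 and 152 FPKM to 94.5 and 95.1 FPKM (-0.64 ± 0.031). Of 28 immediate-early and feedback genes 22 rose and 5 fell. The phosphatase gene Dusp5, a feedback inhibitor of ERK, rose from 78.5 and 71.2 FPKM to 363 and 352 FPKM (2.24 ± 0.046), the early activation marker Cd69 from 74.2 and 78.1 FPKM to 311 and 302 FPKM and Nr4a3 from 67.8 and 65.3 FPKM to 206 and 205 FPKM. Egr3 rose by 1.88, whereas Egr1 fell by 0.38. Of 15 NF-kappaB genes 14 rose, and those raised furthest encode its inhibitors and targets: Tnfaip3 (A20) from 37.03 and 36.2 FPKM to 403 and 401 FPKM (3.42 ± 0.038), Nfkbia from 58.7 and 56.1 FPKM to 266 and 260.4 FPKM, Tnip1 from 36.6 and 37.7 FPKM to 174 and 168 FPKM and Traf1 from 147 and 148 FPKM to 556 and 546 FPKM. Nfkbid fell by 1.05.

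Most interferon-gamma response and MHC class I genes rose, while Ifng itself was lower. Of 34 such genes 24 rose, 17 by at least 1, and 6 fell, with a median of 1.01. The guanylate-binding protein genes, induced by interferon, were highest: Gbp5 rose from 12.4 and 12.5 FPKM to 77.1 and 74.4 FPKM (2.51 ± 0.043), Gbp4 from 18.5 and 19.2 FPKM to 92.3 and 91.8 FPKM and Gbp2 from 27.7 and 27.6 FPKM to 113 and 111 FPKM. They have close relatives in the genome and can share reads. The immunoproteasome genes Psmb8 and Psmb10 fell by 0.64 and 0.84. Among 30 antiviral interferon-stimulated genes 18 rose and 6 fell, with a median of 0.28. The RNA sensor gene Ddx58 rose from 4.81 and 5.17 FPKM to 17.5 and 18.6 FPKM (1.67 ± 0.063), and Isg15 fell from 60.8 and 63.6 FPKM to 30.1 and 29.7 FPKM (-1.03 ± 0.037).

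Biosynthetic genes formed the next block of falls. Serine, one-carbon and nucleotide synthesis genes were lower in 24 of 25 cases, 17 by at least 1, with a median of -1.45. Phgdh, the first enzyme of serine synthesis (GRCm38 chromosome 3, 98313170 to 98339990), fell from 544 and 542 FPKM to 17.9 and 17.8 FPKM, a 30.4-fold difference (-4.85 ± 0.024, adjusted p = 1.48e-10). The serine hydroxymethyltransferase genes Shmt2 and Shmt1 fell from 315 and 314 FPKM to 23.6 and 23.2 FPKM and from 83.2 and 82.7 FPKM to 5.81 and 5.59 FPKM, and the thymidylate synthase gene Tyms from 52.6 and 52.7 FPKM to 2.85 and 3.23 FPKM. In none of these 4 genes did the groups come near each other. The 1 member that rose was Impdh1, of guanine nucleotide synthesis (0.27).

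In the ATF4 and CHOP list, which answers to amino acid shortage and other stress, 17 of 24 genes fell, 13 by at least 1, and 7 rose. Phgdh, counted above among the serine genes, is also in this list and has its largest fall, so the 2 lists are not separate. Asns fell from 103 and 99.4 FPKM to 4.47 and 5.103 FPKM (-4.14 ± 0.055), Nupr1 from 16.2 and 15.2 FPKM to 0.138 and 0.0725 FPKM and Cth, of cysteine synthesis, from 30.8 and 30.1 FPKM to 2.06 and 1.97 FPKM. The Atf4 transcript itself was at 473 and 470.4 FPKM with vehicle and 457 and 445 FPKM with TAMo (-0.065 ± 0.025, adjusted p = 0.0426). Under rescaling to one sum Atf4 was 0.14 on the log2 scale, so its direction depends on the scaling, and the call was lost without any 1 library other than TAMo replicate 1 (adjusted p up to 0.156). Sesn2, which is also a p53 target, rose from 21.6 and 19.04 FPKM to 111 and 106 FPKM (2.36 ± 0.06), and Ndrg1 (1.59) and Atf3 (1.28) rose too. All 20 aminoacyl-tRNA synthetase genes fell, 11 by at least 1, with a median of -1.17. Vars, for valine, fell from 479.7 and 472 FPKM to 77.7 and 72.5 FPKM (-2.65 ± 0.038), Cars from 150.2 and 149 FPKM to 27.8 and 26.3 FPKM and Yars from 147 and 148 FPKM to 29.4 and 29.3 FPKM. Of 13 amino acid transporter genes 5 rose and 7 fell. Slc7a5, of the large neutral amino acid carrier that activated T cells depend on, fell from 148 and 146 FPKM to 24.9 and 26.1 FPKM (-2.48 ± 0.033), and the taurine transporter gene Slc6a6 rose from 121 and 123 FPKM to 548 and 525 FPKM (2.13 ± 0.03).

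Lipid synthesis genes fell as widely. All 24 cholesterol synthesis genes were lower, 20 by at least 1, with a median of -1.87. The enzyme genes Acat2 and Cyp51 fell from 39.9 and 39.5 FPKM to 4.51 and 3.58 FPKM (-3.02 ± 0.081) and from 59.4 and 59.997 FPKM to 8.88 and 8.69 FPKM (-2.63 ± 0.034). Of 13 fatty acid genes 11 fell and 1, Acsl4, rose (0.495). The desaturase genes were the lowest: Fads2 (GRCm38 chromosome 19, 10062765 to 10101746) fell from 54.4 and 53.3 FPKM to 0.363 and 0.446 FPKM (-5.29 ± 0.05, adjusted p = 3.76e-10), Scd1 from 34.3 and 35.2 FPKM to 0.736 and 0.595 FPKM (-4.42 ± 0.057) and Fads1 from 15.9 and 15.7 FPKM to 0.885 and 0.715 FPKM (-3.22 ± 0.067). Srebf1, a regulator of this programme, fell by 1.103. Among 8 sterol efflux genes 4 rose and 3 fell, near the shares of all tested genes (46.2% higher and 40.6% lower). The lysosomal sterol carrier gene Npc2 was at 1.49 and Apoe at -1.38.

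Transcripts of the mitochondrial genome fell together. All 13 were lower by at least 1, with a median of -2.99 and a range from -3.999 to -2.29. They made up 8.15% and 8.34% of all FPKM with vehicle and 1.20% and 1.32% with TAMo. The complex I subunit gene mt-Nd1 fell from 7510.5 and 7659 FPKM to 844 and 845 FPKM (-3.17 ± 0.029). Nuclear genes of the respiratory chain and ATP synthase changed far less: 36 of 41 fell, 7 by at least 1, with a median of -0.41, and Uqcrq, of complex III, fell furthest, from 149 and 145 FPKM to 47.1 and 48.97 FPKM (-1.59). Of 24 genes of the mitochondrial ribosome and mitochondrial gene expression 20 fell and 4 rose. Tfam, which packages and transcribes the mitochondrial genome, fell from 45.4 and 46.4 FPKM to 21.1 and 24.2 FPKM (-0.99 ± 0.08), and Mrpl12, of the mitochondrial ribosome, from 154 and 152 FPKM to 46.01 and 46.1 FPKM.

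**Figure D5:**
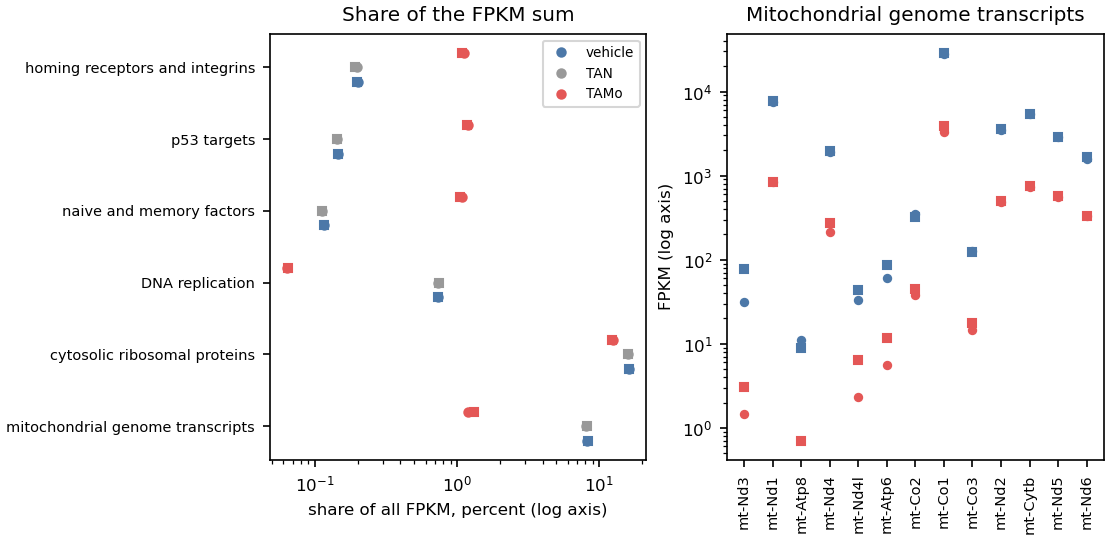
Left, the share of all FPKM held by 6 gene lists in each library, in percent on a log axis (vehicle blue, TAN grey, TAMo red, circles replicate 1, squares replicate 2). Right, FPKM on a log axis of the 13 mitochondrial genome transcripts in the vehicle and TAMo libraries. Mitochondrial genome transcripts fall from 8.15% and 8.34% to 1.20% and 1.32% of all FPKM, and ribosomal proteins from 16.3% and 16.2% to 12.5% and 12.4%.

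Genes of protein synthesis were lower by smaller amounts. Of 75 cytosolic ribosomal protein genes 67 fell, 21 by at least 1, with a median of -0.73. Rpl36 fell from 1538 and 1444 FPKM to 482 and 454 FPKM (-1.67 ± 0.046) and Rplp0 was the 1 that rose, from 4229 and 4130.1 FPKM to 6013 and 5893 FPKM (0.51). These genes are short and have many processed copies, so reads may be shared. With the length and GC trends removed the median was -0.43, and 8 fell by at least 1. Among 41 ribosome biogenesis genes 32 fell and 6 rose, with a fall of Nop56, of the nucleolar RNA modification complex, from 1112 and 1131 FPKM to 227 and 223 FPKM (-2.31 ± 0.025), and Utp20 the furthest raised (1.09). Of 25 translation factors 17 fell and 4 rose, among them the abundant elongation factor gene Eef1a1 from 8562 and 8696 FPKM to 3677 and 4072 FPKM (-1.16) and Eef2, which rose by 0.37. Rescaled to one sum, 1 translation factor in place of 5 was lower by at least 1.

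RNA processing and protein turnover followed. Of 26 spliceosome genes 22 fell, 12 by at least 1, with the Sm protein genes Snrpd1 from 142 and 147 FPKM to 23.8 and 27.005 FPKM and Snrpd2 from 84.2 and 84.9 FPKM to 17.8 and 16.5 FPKM lowest, and Prpf8 rose (0.65). Of 31 proteasome genes 30 fell, with a median of -0.80 and Psmd7 lowest at -1.203, but 8 passed a fall of at least 1 as deposited, 1 after rescaling to one sum and 0 with the length and GC trends removed. Lysosome and autophagy genes rose instead: 26 of 35 were higher, 11 by at least 1, and 7 lower, with a median of 0.69. Atg9b, of the autophagosome membrane, rose from 3.68 and 2.85 FPKM to 73.05 and 72.6 FPKM (4.12 ± 0.092), the cathepsin D gene Ctsd from 20.04 and 20.1 FPKM to 121 and 122 FPKM (2.54 ± 0.044) and the autophagy kinase gene Ulk1 from 12.8 and 12.03 FPKM to 49.03 and 49.4 FPKM. Tfeb, a transcription factor of lysosome genes, fell by 1.804. Chaperone and unfolded protein response genes fell in 18 of 29 cases and rose in 8, with Sdf2l1 at -2.54, Edem1 at 1.995 and the sensor gene Ern1 at 1.62.

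Glycolysis and hypoxia genes showed no common direction, with 12 of 27 higher and 6 lower and a median of 0.007, which became 0.21 on rescaling to one sum, 0.42 after quantile normalisation and -0.065 with a median of ratios. Hilpda, a hypoxia-induced lipid droplet gene, rose from 52.9 and 51.9 FPKM to 253 and 249 FPKM (2.24 ± 0.043), and Pfkfb3, an activator of glycolysis, from 26.6 and 27.1 FPKM to 82.96 and 81.7 FPKM. Of 21 antioxidant and pentose phosphate genes 15 fell, among them the transketolase gene Tkt from 469 and 474 FPKM to 106 and 107 FPKM, Sod1 from 237 and 243 FPKM to 61.2 and 63.7 FPKM and Prdx1 from 206 and 220.3 FPKM to 56.6 and 61.4 FPKM, while Txnip, an inhibitor of glucose uptake, rose from 28.7 and 30.004 FPKM to 127 and 126 FPKM (2.07 ± 0.034). Polyamine, arginase and nitric oxide genes were called 5 of 10 each way, near the division of all tested genes (46.2% higher and 40.6% lower), with Ass1 at 1.64 and Nos2 at -1.44, and of 11 iron and heme genes 4 rose and 5 fell, none by as much as 1. Cytoskeletal genes fell in 16 of 26 cases. Stmn1, a regulator of microtubules, fell from 143 and 144 FPKM to 8.62 and 9.96 FPKM and the lamin gene Lmnb1 from 87.9 and 86.7 FPKM to 5.28 and 5.37 FPKM, whereas Lmna rose (1.52).

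Markers of other cells were measured beside these results. Summed over 12 T cell markers, FPKM was 2736 and 2748 with vehicle and 2924 and 2883 with TAMo. Of 30 monocyte and macrophage markers 24 were under 1 FPKM in all 4 libraries, 6 of these at 0 throughout, and the sum over the list was 52.97 and 52.7 FPKM with vehicle and 33.6 and 38.2 FPKM with TAMo. Most of that sum with vehicle was Ly6c2, which activated CD8 cells also express, at 29.3 and 30.3 FPKM with vehicle and 4.39 and 3.64 FPKM with TAMo. The sum of the 29 other markers went the other way, from 23.7 and 22.3 FPKM with vehicle to 29.2 and 34.6 FPKM with TAMo. Of the 5 tested markers 3 rose and 1 fell. The risers were Cd14, from 0.0852 and 0.0563 FPKM to 2.84 and 3.17 FPKM, Ms4a6c, from 2.38 and 2.62 FPKM to 4.88 and 6.28 FPKM, and Cd68, from 2.95 and 2.35 FPKM to 3.63 and 7.05 FPKM, and the call of Cd68 was lost without either vehicle library or TAMo replicate 2 (adjusted p from 0.0527 to 0.129). The part of remaining Ly6C-high cells in the results was not tested. Of 15 neutrophil markers 10 were at 0 in all 4 libraries, with sums of 0.31 and 0.66 FPKM with vehicle and 1.96 and 1.81 FPKM with TAMo. Sums over dendritic cell and MHC class II genes were 218 and 225 FPKM with vehicle and 96.1 and 91.6 FPKM with TAMo. Most of that fall was Batf3, with means of 129 FPKM with vehicle and 11.5 FPKM with TAMo. Of the 7 tested members 3 rose, among them Zbtb46 (1.26) and H2-DMa (1.11), and 4 fell, among them Cd74 (-1.24). B cell markers summed to 10.8 and 12.1 FPKM and 7.92 and 8.68 FPKM, NK cell markers to 62.6 and 66.1 FPKM and 61.35 and 61.26 FPKM, CD4 and regulatory T cell markers to 1097 and 1104 FPKM and 1396 and 1370 FPKM, and erythroid and platelet markers to 0.82 and 0.99 FPKM and 1.87 and 1.71 FPKM. Most of the CD4 and regulatory sum was Il2ra (means of 298 FPKM with vehicle and 618 with TAMo), Ctla4 (442 and 223) and Tnfrsf18 (341 and 495). Most of the NK sum was Klrk1 (36.3 and 18.5), Klrc1 (14.0 and 31.4) and Eomes (13.8 and 11.3). Ctla4, Klrk1 and Eomes also stand in lists of T cell genes above, so these sums cannot be read as amounts of other cells. In such bulk samples a smaller number of cells of a type and less RNA per cell cannot be told apart, and the part of cell number or cell survival in these results was not tested.

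Against the TAN co-culture, 1603 genes were higher with TAMo by at least 1 (15.1%) and 1508 lower (14.2%). This contrast uses the same TAMo libraries as that against vehicle, so the values are set side by side and no overlap is drawn from them. For Cdk1 the TAN libraries were at 62.7 and 60.8 FPKM, and TAMo was lower than TAN by 5.21 on the log2 scale (adjusted p = 7.8e-10). Ccr7 was at 176 and 171 FPKM with TAN, and TAMo was higher by 4.41 (adjusted p = 1.65e-10). In both genes the TAN values were much nearer to those of vehicle than to those of TAMo. In others TAN lay clearly on the far side of vehicle from TAMo. Ifng was at 1126 and 1146 FPKM with TAN, so that TAMo was lower by 2.33 against TAN and by 1.59 against vehicle, and Ctla4, at 722 and 735 FPKM with TAN, was lower by 1.71 and 0.99. Il2 was at 0.682 and 0.3903 FPKM with TAN and higher with TAMo by 3.604 against TAN and 2.52 against vehicle. The list medians against TAN were 2.57 for p53 targets and -2.87 for mitochondrial genome transcripts, beside 2.62 and -2.99 against vehicle. The medians of the interferon lists differed more than these between the references, but not they alone. That of the ATF4 and CHOP list was -1.04 against TAN and -1.39 against vehicle. For IL-2 and cytokine receptors the medians were 0.45 and 0.69. Interferon-stimulated genes had a median of 0.91 against TAN, with 12 of 30 higher by at least 1, and of 0.28 against vehicle, with 7, and their median of TAN minus vehicle was -0.42. Interferon-gamma response and MHC class I genes had a median of 1.27 against TAN and 1.01 against vehicle. The medians of immediate-early genes (0.80 and 0.76) and NF-kappaB genes (0.93 and 0.82) were close between the references. The medians of TAN minus vehicle were -0.21 for interferon-gamma response and MHC class I genes, -0.198 for immediate-early genes and -0.18 for NF-kappaB genes. These contrasts share libraries with one another, and the difference between the lists was not tested.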

How the data were processed

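RNA of OT-I cells was sequenced in 2 libraries per group (vehicle, TAN and TAMo). The deposited values are FPKM per gene, which the authors computed. The tools listed, per the submitters' processing notes, are HISAT2 2.0.5, featureCounts 1.5.0-p3 and CASAVA, with build mm10 and no role stated. Annotation, strand setting and gene length were not stated in the sources used here, so overlapping and near-identical genes cannot be separated. FPKM is relative to all counted reads, so abundant transcripts move the values of others.

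The genes that reached 1 FPKM in 2 or more of the 4 vehicle and TAMo libraries were tested as log2(FPKM + 1), which understates the change of low genes, without rescaling. limma 3.58.1 (R 4.3.3; eBayes with trend after lmFit and contrasts.fit) was fitted to all 6 libraries and had 3 residual and 4.07 prior degrees of freedom. P-values are two-sided, with Benjamini-Hochberg adjustment over all 10612 genes. The fit was also run on simulated data with independent noise and changes in a small part of the genes. Those data held no difference in scale and no trend with length, so they do not test the calls under such conditions. Without adjustment 9261 genes had p under 0.05. Lists were described by counts and medians, with no set test. The genes, lists and tests were chosen with earlier results of these data known, and the lists give no independent support. Named genes were the 25 largest rises and falls, the 4 largest changes of each list, exceptions to a list's direction and all members of 6 immune lists. The largest rises, falls and list changes were taken from called genes with at least 5 FPKM in the higher group. Their groups also had to show no overlap, so the separation of these genes was set by the choice. Atf4, Ccnd2 and Cd14 were added after their values were seen. Some genes that fall under this rule are not reported here.

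Transcript length, GC content and coordinates came from GENCODE M21 on GRCm38, the assembly of mm10, matched by symbol for 25258 genes. Depth was read from steps between low values in 7708 genes with 1 annotated transcript, of which 98.8% to 99.0% were whole within a tolerance of 0.1 reads. For a 2 kb gene, 1 read then equals 0.011 to 0.012 FPKM, a value that is uncertain and may be too low for TAMo replicate 1. Depths much lower than those given were not searched. Replicates correlated at 0.998 (vehicle) and 0.996 (TAMo) over genes, and none were identical. Alternatives covered scaling, pseudocount, filter, libraries in the fit, variance model, length and GC trends, threshold test, replicate block and left-out libraries.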

Additional observations from a re-analysis of the deposited data

How the results depend on the processing

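The counts of genes higher and lower with TAMo stayed within 1.5 times those reported under every alternative run, between 3886 and 5750 higher and between 3545 and 4688 lower, and those changed by at least 1 between 1202 and 2163 higher and between 1196 and 1804 lower. Leaving out 1 library gave 1600 to 1611 higher and 1540 to 1565 lower by at least 1. Replicate numbers are shared between groups, but same-numbered libraries did not deviate together (r = 0.029), and with 2 pairs the number is only a label. A fit with a replicate block gave 4891 higher and 4322 lower genes and changed no call of the 222 named genes.

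The other dependences lie in counts of list members changed by at least 1. Rescaled to one sum, members lower by that much numbered 8 in ribosome biogenesis (14 as deposited), 9 in ribosomal proteins (21), 1 in translation factors (5), 2 in the mitochondrial ribosome list (4), 1 in sterol efflux (2) and 1 in the proteasome (8), and higher members 8 in glycolysis and hypoxia (5) and 8 in NF-kappaB (5). Rescaled without mitochondrial genes, 8 glycolysis and hypoxia genes were higher and 4 proteasome genes lower. Quantile normalisation gave 12 ribosomal proteins and 3 translation factors lower. With length and GC trends removed, 8 ribosomal proteins, 4 respiratory chain genes (7), 1 sterol efflux gene, 0 proteasome genes, 2 cytokines (6) and 1 checkpoint ligand or MHC class II gene (3) were lower. Testing against a change of 1 gave 12, 1, 1, 3 and 3 lower for ribosomal proteins, the mitochondrial ribosome, sterol efflux, proteasome and cytokines, and 2 inhibitory receptors (4) and 1 polyamine gene (2) higher. That polyamine count was also 1 with a median of ratios and with a trimmed mean, and 1 to 2 with a library left out (1 without vehicle replicate 2 or TAMo replicate 1). A mean of at least 5 FPKM left 7 histones (16) and 3 amino acid transporters (5) lower and 5 cytotoxic genes (8) higher, since fewer genes were tested. For the rest the cause was not tested.

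On rescaling to one sum the medians of cytokines, amino acid transporters, polyamine genes and iron and heme genes turned from -0.070, -0.11, -0.065 and -0.0082 to 0.13, 0.090, 0.14 and 0.17. With length and GC trends removed those of chromatin genes (0.29 to -0.21), cytokines (to 0.28) and iron and heme genes (to 0.197) turned, and with a median of ratios those of CDK inhibitors (0.0059 to -0.065) and glycolysis (0.0068 to -0.065). Atf4 reversed to 0.14 on rescaling to one sum, 0.033 without mitochondrial genes and 0.17 with length and GC trends removed. With 2 libraries a group, and the uncertain depth of TAMo replicate 1, small changes are the least certain.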
